A study of Homo sapiens with 12 samples.

Results

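The genes described here make fatty acids and triglycerides in human cells. They are the enzymes that supply acetyl-CoA, build, desaturate, lengthen and activate fatty acids, and join them to glycerol, together with lipases, lipid droplet coat proteins, fatty acid carriers and regulators of the pathway. They were taken by gene name: a gene was included where the deposited expression tables carry 1 of 55 symbols. Of the 55, 43 were among the 8842 genes that the tables list, and 12 (ACLY, ELOVL4, HACD1, HACD3, ACSL4, MCAT, OXSM, MECR, PLIN5, THRSP, CIDEB and MLYCD) had no entry under symbol or gene ID.

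The lncRNA FASRL was knocked down with an siRNA (siFASRL) in HepG2 and in LM3, both established human liver cancer cell lines, and these cells were compared with cells given a negative control siRNA (siNC). RNA was sequenced in bulk 48 hours after transfection, with 3 libraries in each of the 4 groups, 12 in all. FASRL itself is not among the listed genes, so the size of its knockdown was not analysed here. HepG2 and LM3 are each 1 line, and the labels do not say whether the 3 replicates of a group were separate cultures, so the p-values below measure the spread between these libraries only.

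Cells make fatty acids from citrate, which leaves the mitochondria, is split to acetyl-CoA in the cytosol, is carboxylated to malonyl-CoA and is then assembled into palmitate by fatty acid synthase. Palmitate is activated with coenzyme A, desaturated and elongated at the endoplasmic reticulum and added stepwise to glycerol phosphate. The resulting triglyceride is stored in droplets, from which lipases release it. Hepatocytes are a main site of this synthesis, and the transcription factors SREBP, LXR and ChREBP are known to raise transcription of many of its genes.

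Every level below is the deposited RSEM value of a gene, which is scaled for transcript length, so levels of different genes can be compared on that scale only. Whether the scale is FPKM or TPM is not stated, and read depth is unknown because read counts were not analysed here. The values of a library summed to between 316534 and 355094, with siFASRL sums of 347211 to 355094 against siNC sums of 333193 to 338379 in HepG2, and of 346884 to 348573 against 316534 to 321859 in LM3. Replicates of a group correlated at 0.9954 to 0.9989 on the log2 scale. LM3 siNC replicate 1 stood apart (0.9954 and 0.9958 with its replicates, which correlated at 0.9988 with each other), as did HepG2 siNC replicate 2 (0.9964 and 0.9958, against 0.9981) and HepG2 siFASRL replicate 1 (0.9969 and 0.9972, against 0.9988). For some of the genes that rest on these libraries, values are given below with and without them. In bulk RNA, fewer cells with a transcript and less of that transcript per cell cannot be told apart.

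A gene was tested where at least 3 libraries of the comparison reached a value of 1. Its fold change is the difference of mean log2(value + 1) between siFASRL and siNC, which understates changes of genes with low values. P-values were adjusted over all tested genes of the tables, and a gene was called lower or higher where its adjusted p was under 0.05. A second, stricter rule, called the fold threshold below, also asked for a log2 fold change of at least 1 in size. With 3 libraries against 3, the smallest p that an exact permutation of labels can reach is 0.1, so every p here depends on the model. The listed genes are not the whole transcriptome, since the RefSeq table holds 20056 protein-coding genes. In HepG2 few listed genes had a small negative effect: of 6367 genes with a mean of at least 5, 5 (0.0785%) had an effect between -0.20 and -0.04, against 578 of 5937 (9.74%) in LM3. Genes with such effects in HepG2 appear to have been left out. Counts of called genes in HepG2 may therefore be counts over genes preselected in a way the labels do not describe. Exons shared with other genes also make some values uncertain, and beside those named with their gene these include HSD17B12 with AC087521.2 (948 bases) and AC068205.2 (490 bases), PLIN3 with AC027319.1 (502 bases, 17.8% of its exonic bases), DGAT1 with AC233992.1 (444 bases), DGAT2 with AP003031.1 (423 bases), PNPLA2 with AP006621.1 (401 bases), TECR with DNAJB1 (211 bases), PNPLA3 with SAMM50 (148 bases) and DGAT1 with HSF1 (139 bases). Pseudogenes are annotated for SLC25A1 (5), TECR (2), SCD, FADS2 and AGPAT5 (1 each).

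The synthesis genes were mostly lower after FASRL knockdown in both lines. Lower levels reached nearly every step from acetate activation to triglyceride assembly, the 3 tested droplet coat genes were not called lower, and some genes moved differently in the 2 lines. In HepG2, 42 of the 43 genes were tested, and 32 were lower (76.2%) where 44.3% of all tested genes were lower. Another 9 were higher (21.4%) where 44.8% of all tested genes were higher, and FADS3 was called in neither direction. At the fold threshold, 9 were lower (21.4% against 6.79% of all tested genes): FASN, SCD, FADS2, ELOVL6, GPAM, AGPAT5, PNPLA3, MLXIPL and FABP1. With HepG2 effects centred on the gap in their distribution, an alternative added after the data were seen, 5 were. ACSL5 alone was higher at that threshold (2.38% against 3.61%). The median log2 fold change of the 42 genes was -0.50, beside 0.10 over all 8144 tested genes.

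In LM3, 40 genes were tested, and 29 were lower (72.5%) where 43.5% of all tested genes were lower. Another 6 were higher (15%) where 33.9% of all tested genes were higher, and FADS3, GPAM, AGPAT5, PLIN2 and PLIN3 were called in neither direction. At the fold threshold 7 were lower (17.5% against 6.2%): ACACB, ACSS2, SCD, FADS1, LPIN1, LIPE and MLXIPL. None was higher, where 1.42% of all tested genes were. ACSL5, LIPE and MLXIPL passed the filter only through their siNC libraries and so had to be lower, and without them 26 of 37 tested genes were lower (70.3%) and 5 at the fold threshold (13.5%), where 41.8% and 5.3% of all genes were once such genes were left out. The median log2 fold change was -0.52 over the 40 genes and -0.47 without those 3, beside -0.06 over all 7483 tested genes. ELOVL2, MOGAT2 and FABP1 were too low in LM3 to be tested, as LIPE was in HepG2.

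Of the 39 genes tested in both lines, 26 were lower in both (66.7%), where 36% of the 7349 genes tested in both lines were. Another 5, namely ELOVL1, HSD17B12, MGLL, CIDEC and FABP5, were higher in both (12.8% against 29.6%). DGAT2, ME1 and ACSL5 were called in opposite directions (7.69% against 5.31%). Without ACSL5 and MLXIPL, whose direction in LM3 was set by the filter, 25 of 37 were lower in both (67.6% against 34.3%) and 2 opposite (5.41% against 5.2%), so the share with opposite calls was near that of all genes. SCD passed the fold threshold in both lines, as did MLXIPL with that limit in LM3. The plot of knockdown effects by step shows the same split, with most points left of 0 and the droplet coat genes right of it.

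**Figure D1:**
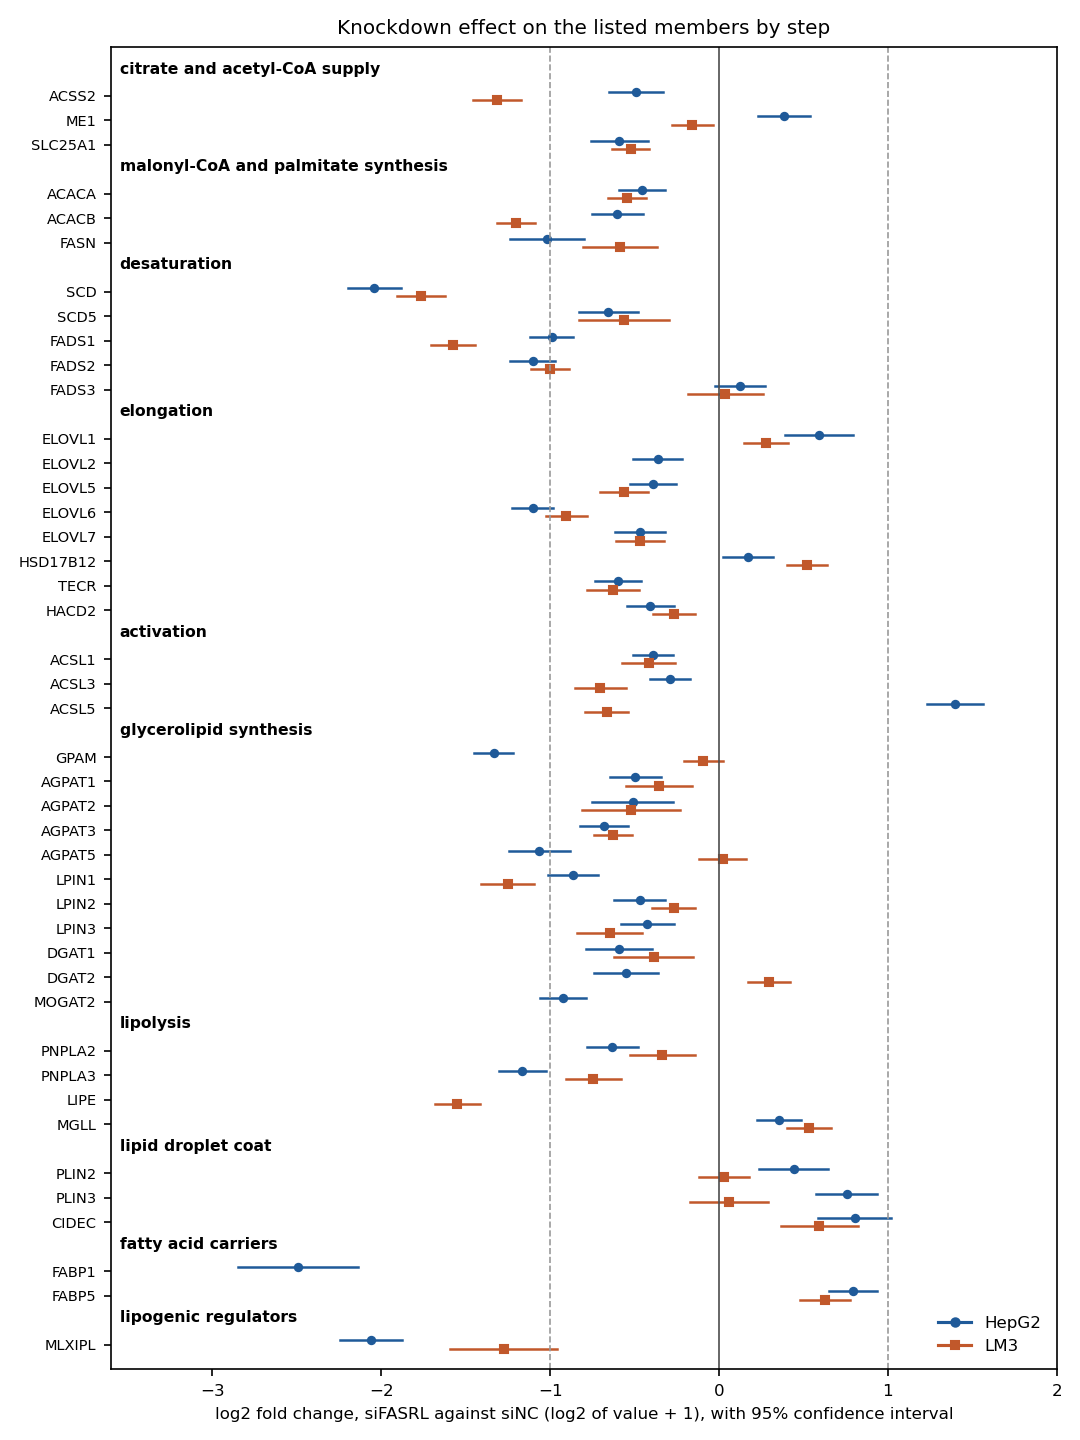
Knockdown effect of each listed gene, grouped by step, as log2 fold change of siFASRL against siNC with its 95% confidence interval (circles HepG2, squares LM3, n = 3 libraries a group). Genes without a point in a line were not tested there, and dashed lines mark a log2 fold change of 1 in either direction.

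Because so many of these genes moved together, their promoters were searched for the letters that known lipogenic factors bind. RefSeq promoter windows of 300 bases (250 before to 50 after the start site, build GRCh38.p14) were at hand for 33 of the 43 listed genes, in 55 windows. FASN, HSD17B12, AGPAT5, LPIN3, DGAT1, DGAT2, MOGAT2, PNPLA3, MGLL and FABP5 had none. CCAAT, the box bound by the SREBP partner NF-Y, was found on either strand in 23 of the 55 windows (41.8%), from 18 genes, and in 34.6% of all 35116 promoters. The E-box CACGTG was in the windows of ELOVL5, LPIN2 and PLIN2 (5.45% of windows, against 7.26% of all promoters). The sterol regulatory element letters TCACNCCAC were in those of ACSL1, CIDEC and PNPLA2 (5.45% against 1.13%). In ACSL1 and CIDEC they were only in a window inside the gene (chr4:184805504-184805803 and chr3:9878763-9879062). Their other windows lack these letters, and CIDEC was higher in both lines. These 3 letter patterns do not overlap in the windows shown. CCAAT was not limited to genes that fell: ELOVL1 and PLIN3, higher in HepG2, and FADS3, called in neither line, hold it. ELOVL6, MLXIPL and FABP1 fell past the fold threshold in HepG2 and have windows without it. A match is a description of the sequence, and binding was not measured. Printed below are SCD (chr10:100346983-100347282, plus strand), FADS2 (chr11:61816154-61816453, plus strand) and GPAM (chr10:112183716-112184015, minus strand), which fell past the fold threshold in HepG2 and hold CCAAT, then ELOVL5 (chr6:53348901-53349200, minus strand) and PLIN2 (chr9:19127443-19127742, minus strand) with the E-box and PNPLA2 (chr11:818664-818963, plus strand) with the sterol regulatory letters. Capitals mark the matches, and a match on the other strand is in its reverse complement.
SCD: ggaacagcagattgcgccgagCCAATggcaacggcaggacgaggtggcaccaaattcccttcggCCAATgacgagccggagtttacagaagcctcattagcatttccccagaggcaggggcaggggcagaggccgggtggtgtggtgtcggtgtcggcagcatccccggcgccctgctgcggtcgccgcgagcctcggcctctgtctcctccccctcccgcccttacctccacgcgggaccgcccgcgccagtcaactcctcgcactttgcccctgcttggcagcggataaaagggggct
FADS2: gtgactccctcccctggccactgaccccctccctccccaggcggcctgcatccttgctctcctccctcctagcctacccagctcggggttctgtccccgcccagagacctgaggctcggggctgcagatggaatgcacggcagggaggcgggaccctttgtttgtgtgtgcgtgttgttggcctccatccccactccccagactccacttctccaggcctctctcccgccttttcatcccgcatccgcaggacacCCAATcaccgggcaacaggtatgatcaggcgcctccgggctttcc
GPAM: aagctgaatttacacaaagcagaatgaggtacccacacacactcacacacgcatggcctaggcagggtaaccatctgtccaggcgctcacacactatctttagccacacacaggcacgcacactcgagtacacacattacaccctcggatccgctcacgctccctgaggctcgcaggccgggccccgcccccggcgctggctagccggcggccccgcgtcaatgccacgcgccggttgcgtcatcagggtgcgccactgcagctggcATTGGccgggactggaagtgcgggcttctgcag
ELOVL5: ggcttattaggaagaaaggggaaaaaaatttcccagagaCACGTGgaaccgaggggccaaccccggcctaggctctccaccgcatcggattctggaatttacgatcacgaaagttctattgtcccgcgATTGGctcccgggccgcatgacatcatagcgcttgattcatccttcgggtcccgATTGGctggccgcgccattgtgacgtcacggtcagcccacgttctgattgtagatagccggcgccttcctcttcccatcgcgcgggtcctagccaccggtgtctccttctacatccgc
PLIN2: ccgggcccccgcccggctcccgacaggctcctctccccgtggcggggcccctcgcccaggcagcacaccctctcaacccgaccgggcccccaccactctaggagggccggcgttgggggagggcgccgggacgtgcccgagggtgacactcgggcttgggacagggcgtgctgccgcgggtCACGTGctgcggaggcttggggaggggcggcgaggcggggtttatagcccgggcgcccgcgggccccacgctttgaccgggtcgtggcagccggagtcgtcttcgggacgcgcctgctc
PNPLA2: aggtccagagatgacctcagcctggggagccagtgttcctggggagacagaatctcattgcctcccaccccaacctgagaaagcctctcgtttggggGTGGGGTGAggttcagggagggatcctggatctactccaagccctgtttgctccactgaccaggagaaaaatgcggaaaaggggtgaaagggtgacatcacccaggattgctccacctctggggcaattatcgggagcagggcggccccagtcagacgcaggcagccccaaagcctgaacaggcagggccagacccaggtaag

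SCD carries CCAAT at 2 places of the printed window and ELOVL5 carries it at 2 places as ATTGG beside its E-box, while FADS2 and GPAM carry it at 1 place close to the start site of the printed window. The other FADS2 window (chr11:61815953-61816252), which spans the RefSeq start of the gene, holds no CCAAT. The GPAM window lies inside the gene (chr10:112149865-112227677), away from its outermost start site. The printed promoters belong to genes with unlike responses: SCD, FADS2, ELOVL5 and PNPLA2 were lower in both lines, GPAM was called lower in HepG2 but not in LM3, and PLIN2 was higher in HepG2.

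Values are given from here on in the order replicate 1, 2 and 3. Counts of each step stand beside 44.3% of all tested genes lower and 44.8% higher in HepG2, and 43.5% and 33.9% in LM3. Gene positions are those of the RefSeq gene table for GRCh38.p14. Acetyl-CoA supply was lower in LM3 at each listed gene and mixed in HepG2. The summed level of its 3 listed genes ran from 103 to 109.5 in HepG2 siNC and from 73.8 to 83.8 in HepG2 siFASRL, and from 151 to 156 and from 102 to 106 in LM3. ACLY, which splits citrate in the cytosol, is not listed. ACSS2 (gene ID 55902, chr20:34874989-34927959) makes acetyl-CoA from acetate. In HepG2, ACSS2 was at 11, 13.1 and 11.9 in siNC and 8.68, 8.10 and 7.91 in siFASRL (log2 fold change -0.49, SE 0.07, adjusted p = 0.000114). LM3 values of ACSS2 were 17.5, 19.8 and 20.0 in siNC and 6.91, 7.17 and 7.12 in siFASRL (log2 fold change -1.31, SE 0.06, adjusted p = 6.68e-07). Every siFASRL library was below every siNC library in both lines, and the fall was larger in LM3 (difference -0.82, SE 0.09, adjusted p = 1.47e-05).

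ME1 (gene ID 4199, chr6:83210402-83431051) is the cytosolic malic enzyme, which yields NADPH for fatty acid synthesis. In HepG2, ME1 was at 11.5, 11.1 and 11.7 in siNC and 15.5, 13.8 and 16.4 in siFASRL (log2 fold change 0.39, SE 0.07, adjusted p = 0.000474). LM3 values of ME1 were 20.0, 18.8 and 18.2 in siNC and 16.8, 17.0 and 16.9 in siFASRL (log2 fold change -0.16, SE 0.05, adjusted p = 0.0222). The groups did not overlap in either line, yet they moved in opposite directions, up in HepG2 and slightly down in LM3 (difference -0.54, SE 0.08, adjusted p = 0.000182). The LM3 call for ME1 ended with quantile normalization (-0.10, adjusted p = 0.15) and with median-of-ratios scaling (-0.04, adjusted p = 0.453). Without any 1 of the siFASRL libraries the call ended as well (adjusted p = 0.0576 to 0.0654), though the fold change stayed at -0.15 to -0.16. SLC25A1, the mitochondrial citrate carrier, fell from a mean of 83.8 to 55.5 in HepG2 (log2 fold change -0.59, SE 0.07, adjusted p = 5e-05). In LM3, SLC25A1 fell from 116 to 80.5 (log2 fold change -0.52, SE 0.05, adjusted p = 1.8e-05). Its falls in the 2 lines were not called different (difference 0.07, SE 0.09, adjusted p = 0.564).

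Malonyl-CoA and palmitate synthesis was lower at all 3 listed genes in both lines, where 44.3% of all tested genes were lower in HepG2 and 43.5% in LM3. On the log2(value + 1) scale ACACB led in LM3 and FASN in HepG2, and ACACA fell by a similar amount in each. As a share of siNC, FASN (48.6%) and ACACB (49.7%) were nearly equal in HepG2. MLYCD, which breaks malonyl-CoA down, is not listed, and neither are MCAT, OXSM and MECR of the separate mitochondrial pathway. ACACA (gene ID 31, chr17:37084992-37406836) is the cytosolic acetyl-CoA carboxylase, whose product feeds synthesis. In HepG2, ACACA was at 13.4, 13.1 and 14.2 in siNC and 10.2, 9.36 and 9.22 in siFASRL (log2 fold change -0.46, SE 0.06, adjusted p = 6.53e-05). LM3 values of ACACA were 30.5, 31.9 and 29.9 in siNC and 20.6, 21.2 and 20.5 in siFASRL (log2 fold change -0.55, SE 0.05, adjusted p = 1.76e-05). All siFASRL libraries lay below all siNC libraries, at 70.8% of its siNC mean for HepG2 and 67.5% in LM3. The difference between the lines was -0.09 (95% confidence interval -0.24 to 0.07, adjusted p = 0.352).

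ACACB (gene ID 32, chr12:109111189-109268226) is the carboxylase at the mitochondrial surface, whose malonyl-CoA restrains entry of fatty acids for oxidation. In HepG2, ACACB was at 1.86, 2.33 and 2.23 in siNC and 1.02, 1.09 and 1.08 in siFASRL (log2 fold change -0.60, SE 0.07, adjusted p = 2.16e-05). LM3 values of ACACB were 6.98, 6.93 and 7.16 in siNC and 2.61, 2.39 and 2.48 in siFASRL (log2 fold change -1.20, SE 0.05, adjusted p = 3.79e-07). ACACB was low in every HepG2 library and clearly higher in LM3 siNC, and the groups were apart in both lines. Its fall was larger in LM3 (difference -0.60, SE 0.08, adjusted p = 5.72e-05). In HepG2 the fall of ACACB ranged from -0.26 with quantile normalization to -0.94 with a pseudocount of 0.1, and in LM3 quantile normalization brought it to -0.91, short of the fold threshold.

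FASN (gene ID 2194, chr17:82078338-82098236) is fatty acid synthase, which builds palmitate. In HepG2, FASN was at 100.3, 128 and 99.7 in siNC and 49.7, 54.0 and 55.7 in siFASRL (log2 fold change -1.02, SE 0.10, adjusted p = 7.4e-06). LM3 values of FASN were 74.3, 96.3 and 92.1 in siNC and 60.8, 57.1 and 54.8 in siFASRL (log2 fold change -0.59, SE 0.10, adjusted p = 0.000535). FASN was lower in every siFASRL library than in any siNC library of its line, but the siNC libraries were uneven: replicate 2 was the highest in HepG2 and replicate 1 the lowest in LM3. Both are among the libraries that stood apart. Without HepG2 siNC replicate 2 the HepG2 fold change was -0.90, short of the fold threshold, and without LM3 siNC replicate 1 the LM3 one was -0.70. Centring HepG2 effects on the gap in their distribution also left FASN short of that threshold in HepG2 (-0.90), as did leaving out siFASRL replicate 1 (-0.97). FASN fell less in LM3 (difference 0.43, SE 0.15, adjusted p = 0.0316), a call that was lost in some alternatives.

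**Figure D2:**
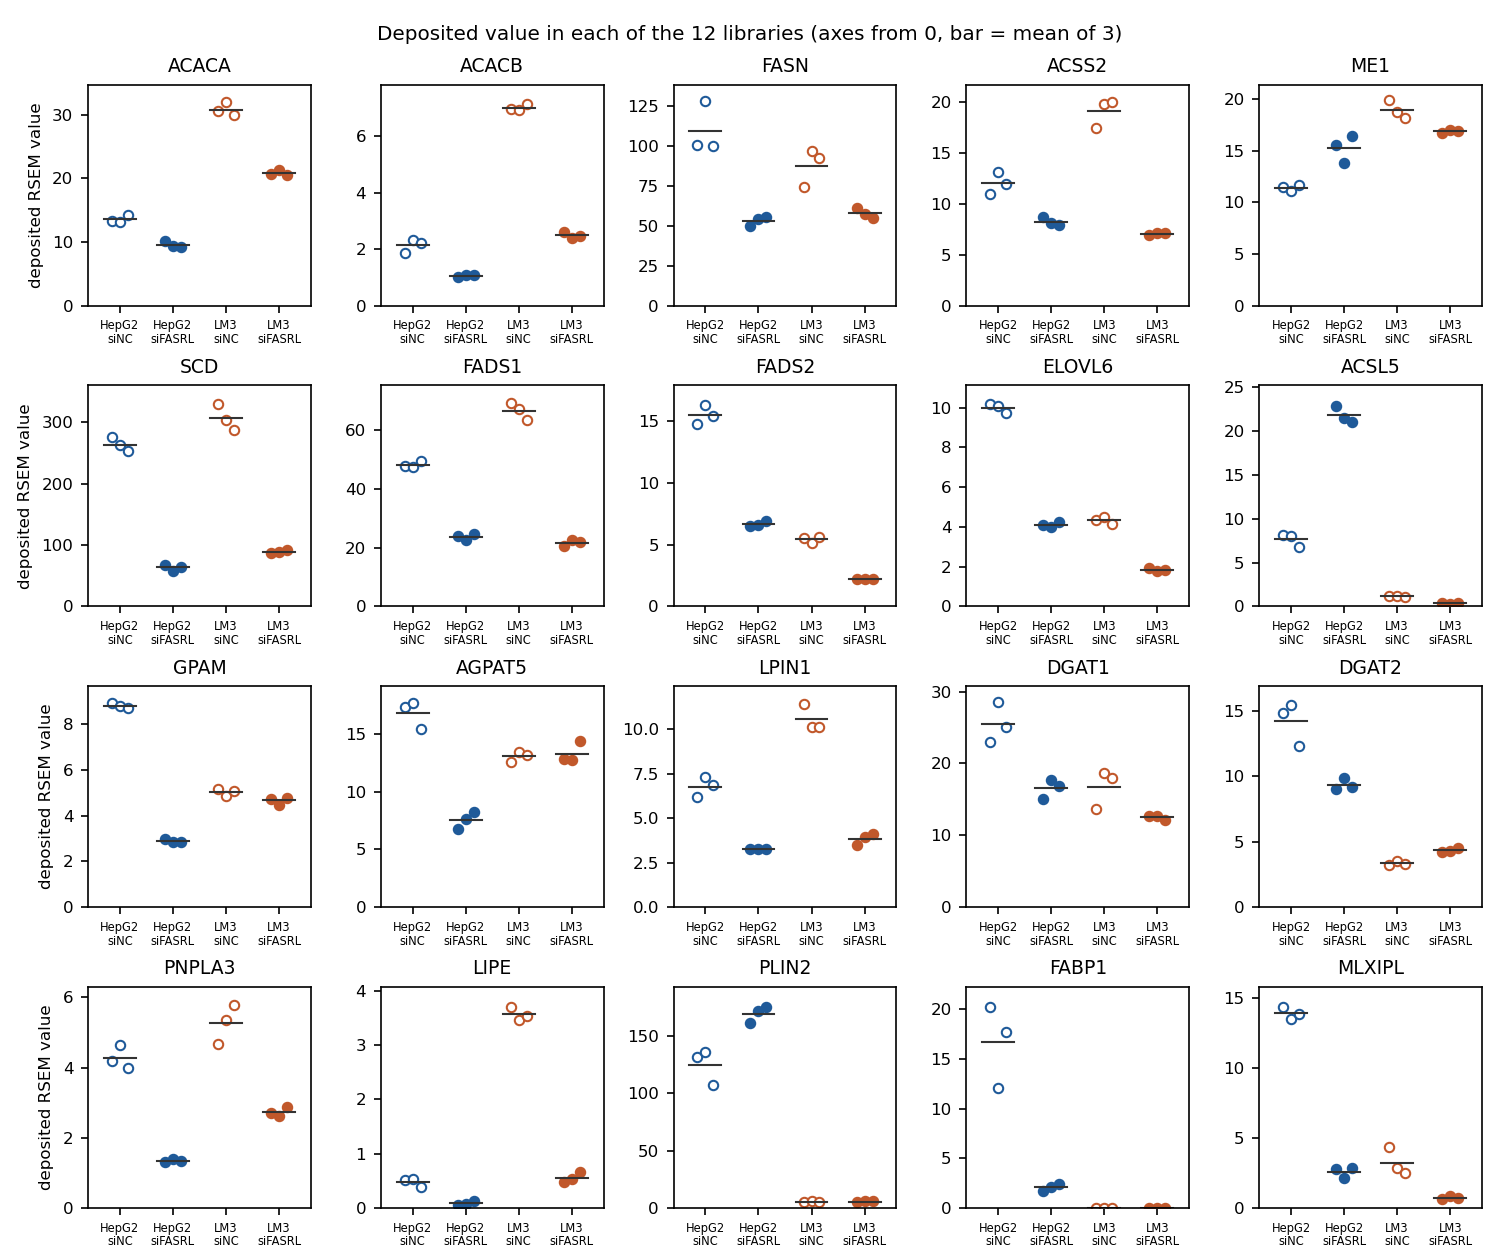
Deposited value of 20 genes in each of the 12 libraries (open circles siNC, filled circles siFASRL, bar = mean of 3, linear axes from 0). Most pairs of groups are apart in both lines, while GPAM, AGPAT5, PLIN2 and FABP1 separate clearly in HepG2 only.

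Desaturation held SCD, which passed the fold threshold in both lines, and FADS1 and FADS2 fell by more than most genes of other steps. Its summed level ran from 355.1 to 374.1 in HepG2 siNC and from 121.5 to 132.2 in siFASRL, and from 427.0 to 464.6 and from 173.1 to 178.9 in LM3. SCD (gene ID 6319, chr10:100347233-100364826) is stearoyl-CoA desaturase, which makes oleate, the main fatty acid of triglycerides. In HepG2, SCD was at 276, 263 and 253 in siNC and 67.7, 58.2 and 64.5 in siFASRL (log2 fold change -2.04, SE 0.07, adjusted p = 2.73e-08). LM3 values of SCD were 329.9, 303 and 287 in siNC and 86.9, 89.2 and 92.4 in siFASRL (log2 fold change -1.76, SE 0.06, adjusted p = 2.42e-07). SCD had the highest level of the 43 genes in both lines' siNC cells, and after knockdown its mean was 24.1% of that in siNC for HepG2 and 29.2% in LM3. The fall was slightly larger in HepG2 (difference 0.28, SE 0.09, adjusted p = 0.0287), a difference whose call was lost in some alternatives.

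FADS1 (gene ID 3992, chr11:61799627-61817003) is the delta 5 desaturase of polyunsaturated fatty acids. In HepG2, FADS1 was at 47.9, 47.5 and 49.3 in siNC and 23.8, 22.8 and 24.8 in siFASRL (log2 fold change -0.99, SE 0.06, adjusted p = 3.14e-07). LM3 values of FADS1 were 69.3, 67.1 and 63.5 in siNC and 20.6, 22.4 and 22.1 in siFASRL (log2 fold change -1.57, SE 0.06, adjusted p = 2.52e-07). The groups were far apart in both lines and FADS1 fell more in LM3 (difference -0.58, SE 0.07, adjusted p = 3.57e-05). In HepG2 it lay just short of the fold threshold and passed it with either smaller pseudocount and with quantile normalization (-1.08), as well as without siFASRL replicate 3 or siNC replicate 2. FADS2 (gene ID 9415, chr11:61816203-61867354) is the delta 6 desaturase, which acts ahead of FADS1. In HepG2, FADS2 was at 14.8, 16.4 and 15.4 in siNC and 6.53, 6.58 and 6.96 in siFASRL (log2 fold change -1.10, SE 0.06, adjusted p = 2.34e-07). LM3 values of FADS2 were 5.51, 5.18 and 5.60 in siNC and 2.22, 2.21 and 2.22 in siFASRL (log2 fold change -0.999, SE 0.05, adjusted p = 8.34e-07). FADS2 began lower in LM3, where all 3 siFASRL libraries had nearly the same value. Its falls were not called different (difference 0.10, SE 0.07, adjusted p = 0.246), but with quantile normalization they were (0.50, adjusted p = 9.22e-05), with a log2 fold change of -0.68 in LM3. In HepG2, FADS2 missed the fold threshold with effects centred on the gap (-0.98), and in LM3 it passed with a pseudocount of 0.1 (-1.25) or 0.5 (-1.13) and without siNC replicate 2 (-1.03). FADS1 and FADS2 share 490 exonic bases on opposite strands in the GENCODE annotation, and whether reads were assigned by strand is not stated.

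SCD5, a second stearoyl-CoA desaturase, fell in HepG2 from a mean of 13.2 to 8.07 (log2 fold change -0.66, SE 0.08, adjusted p = 3.14e-05). In LM3, SCD5 fell from 12.1 to 7.77 (log2 fold change -0.56, SE 0.12, adjusted p = 0.00208), and its log2 fold change was -0.41 without siNC replicate 1. FADS3, a desaturase of the same gene cluster, was the only gene of this step not called in either line. Its means were 23.7 in siNC and 25.9 in siFASRL in HepG2 (log2 fold change 0.13, SE 0.07, adjusted p = 0.0934), with overlapping groups. In LM3, FADS3 was at 53.7 in siNC and 54.8 in siFASRL (log2 fold change 0.04, SE 0.10, adjusted p = 0.734), where the groups overlapped too and the sign turned without siNC replicate 1 (-0.08). In HepG2, FADS3 was called higher without siNC replicate 2 (0.18, adjusted p = 0.0238) and with effects centred on the gap (0.25).

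Elongation was lower at 6 of 8 listed genes in HepG2 and at 5 of 7 tested in LM3, with ELOVL1 and HSD17B12 higher in both. The shares lower were 75% and 71.4%, where 44.3% and 43.5% of all tested genes were lower. ELOVL4, HACD1 and HACD3 are not listed. ELOVL6 (gene ID 79071, chr4:110045846-110199202) lengthens palmitate to stearate, the step before SCD. In HepG2, ELOVL6 was at 10.2, 10.1 and 9.71 in siNC and 4.11, 4.0 and 4.24 in siFASRL (log2 fold change -1.10, SE 0.05, adjusted p = 1.41e-07). LM3 values of ELOVL6 were 4.34, 4.5 and 4.14 in siNC and 1.94, 1.77 and 1.83 in siFASRL (log2 fold change -0.90, SE 0.05, adjusted p = 1.65e-06). The replicates were tight and the groups apart, at 41.2% of its siNC mean for HepG2 and 42.7% in LM3. On the log2 scale the fall was somewhat larger in HepG2 (difference 0.20, SE 0.07, adjusted p = 0.0249), a call lost in 8 of 20 alternatives, over which the difference ran from 0.07 with a pseudocount of 0.1 (adjusted p = 0.437) to 0.60. In HepG2, ELOVL6 missed the fold threshold with quantile normalization (-0.94) and with effects centred on the gap (-0.98). In LM3 its fall was -0.54 with quantile normalization, and it passed the threshold with a pseudocount of 0.1 (-1.19) or 0.5 (-1.04).

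ELOVL5, which lengthens polyunsaturated fatty acids, fell from a mean of 78.7 to 59.8 in HepG2 (log2 fold change -0.39, SE 0.06, adjusted p = 0.000187). In LM3, ELOVL5 fell from 86.3 to 58.0 (log2 fold change -0.56, SE 0.06, adjusted p = 5.47e-05). ELOVL2, which acts on longer polyunsaturated chains, fell in HepG2 from 9.09 to 6.83 (log2 fold change -0.36, SE 0.06, adjusted p = 0.000486). With quantile normalization that fall of ELOVL2 was -0.23, and in LM3 it had means of 0.16 in siNC and 0.0867 in siFASRL, too low to test. ELOVL7, which acts on saturated chains, fell from 1.903 to 1.10 in HepG2 (log2 fold change -0.47, SE 0.07, adjusted p = 9.03e-05), but with quantile normalization it was not called (-0.12, adjusted p = 0.105). In LM3, ELOVL7 fell from 4.77 to 3.18 (log2 fold change -0.47, SE 0.06, adjusted p = 0.000157), and its log2 fold change was -0.15 with quantile normalization. ELOVL1, which makes very long saturated chains, was higher: its means were 36.1 in siNC and 54.7 in siFASRL in HepG2 (log2 fold change 0.59, SE 0.09, adjusted p = 0.000147). In LM3, ELOVL1 rose from 44.9 to 54.8 (log2 fold change 0.28, SE 0.06, adjusted p = 0.00199).

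Each elongation cycle also needs a ketoacyl reductase, a dehydratase and an enoyl reductase. HSD17B12, the reductase of the ketoacyl step, was at 20.2 in siNC and 22.9 in siFASRL in HepG2 (log2 fold change 0.17, SE 0.07, adjusted p = 0.0323). That HepG2 call for HSD17B12 ended with quantile normalization (0.14, adjusted p = 0.089) and in 5 of the 6 fits that leave out a library. In LM3, HSD17B12 rose more, from 14.0 to 20.6 (log2 fold change 0.52, SE 0.05, adjusted p = 2.44e-05). HACD2, a dehydratase of the cycle, fell from 46.0 to 34.5 in HepG2 (log2 fold change -0.41, SE 0.06, adjusted p = 0.000176). In LM3, HACD2 fell from 53.7 to 44.5 (log2 fold change -0.27, SE 0.05, adjusted p = 0.00188), and its log2 fold change was -0.15 with median-of-ratios scaling. TECR, the enoyl reductase that ends the cycle, had the highest level of this step in HepG2. It fell there from 187 to 123 (log2 fold change -0.60, SE 0.06, adjusted p = 1.17e-05). In LM3, TECR fell from 98.5 to 63.3 (log2 fold change -0.63, SE 0.07, adjusted p = 4.63e-05). So among these genes of the cycle the first reductase rose while the dehydratase and the last reductase fell, in both lines.

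Activation with coenzyme A held a gene with opposite responses. ACSL5 rose in HepG2 and fell in LM3, while ACSL1 and ACSL3 fell in both, and ACSL4 is not listed. ACSL5 (gene ID 51703, chr10:112374116-112428376) activates long-chain fatty acids. In HepG2, ACSL5 was at 8.16, 8.0 and 6.79 in siNC and 22.9, 21.4 and 21.0 in siFASRL (log2 fold change 1.40, SE 0.07, adjusted p = 2.13e-07). LM3 values of ACSL5 were 1.21, 1.15 and 1.12 in siNC and 0.44, 0.30 and 0.35 in siFASRL (log2 fold change -0.67, SE 0.06, adjusted p = 1.03e-05). ACSL5 had the largest rise in HepG2 among the 43 genes, whereas in LM3 it started just above 1 and ended well below it. The effect differed between the lines (difference -2.07, SE 0.09, adjusted p = 4.6e-09). In LM3, ACSL5 passed the filter through siNC alone, so it could only be lower there, and its fold change there ranged from -0.33 with quantile normalization to -1.45 with a pseudocount of 0.1. ACSL5 shares 224 exonic bases with the antisense gene AL157786.1 and 144 with ZDHHC6, both on the other strand.

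ACSL1, the main acyl-CoA synthetase of liver, fell in HepG2 from a mean of 11.2 to 8.29 (log2 fold change -0.39, SE 0.05, adjusted p = 7.4e-05). In LM3, ACSL1 fell from 5.76 to 4.06 (log2 fold change -0.42, SE 0.07, adjusted p = 0.000524), but it was not called with quantile normalization (-0.16, adjusted p = 0.0683). ACSL3, the synthetase found at lipid droplets, fell in HepG2 from 37.1 to 30.1 (log2 fold change -0.29, SE 0.05, adjusted p = 0.000519), and its log2 fold change was -0.17 with effects centred on the gap. In LM3, ACSL3 fell further, from 36.6 to 22.1 (log2 fold change -0.70, SE 0.07, adjusted p = 2.02e-05). ACSL3 was thus at nearly the same level in both lines' siNC cells and lower in LM3 after knockdown (difference -0.41, SE 0.08, adjusted p = 0.00102). The summed level of this step ran from 53.9 to 57.1 in HepG2 siNC and from 59.3 to 61.7 in siFASRL, and from 40.7 to 45.2 and from 25.3 to 28.0 in LM3.

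Glycerolipid synthesis was lower at all 11 genes in HepG2, and at 7 of 10 tested in LM3, where DGAT2 was higher and GPAM and AGPAT5 were called in neither direction. These shares of 100% and 70% stand beside 44.3% and 43.5% of all tested genes lower. GPAM and AGPAT5 fell past the fold threshold in HepG2 and hardly moved in LM3. Its summed level ran from 211 to 229 in HepG2 siNC and from 138 to 140.4 in siFASRL, and from 183 to 217.5 and from 145 to 150.4 in LM3. GPAM (gene ID 57678, chr10:112149865-112227677) adds the first acyl chain to glycerol phosphate at the mitochondria. In HepG2, GPAM was at 8.89, 8.78 and 8.68 in siNC and 2.97, 2.84 and 2.83 in siFASRL (log2 fold change -1.33, SE 0.05, adjusted p = 5e-08). LM3 values of GPAM were 5.17, 4.86 and 5.08 in siNC and 4.71, 4.48 and 4.78 in siFASRL (log2 fold change -0.09, SE 0.05, adjusted p = 0.118). GPAM fell to 32.8% of the control mean in HepG2, with tight replicates. In LM3 the 3 siFASRL values of GPAM lay just below the 3 siNC values. The effect differed between the lines (difference 1.24, SE 0.06, adjusted p = 1.08e-08). With quantile normalization GPAM was called higher in LM3 (0.17, adjusted p = 0.0203), so its direction there depends on the scaling.

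AGPAT5 (gene ID 55326, chr8:6708642-6761503) is an acyltransferase of the second acylation. In HepG2, AGPAT5 was at 17.3, 17.7 and 15.5 in siNC and 6.74, 7.59 and 8.26 in siFASRL (log2 fold change -1.06, SE 0.08, adjusted p = 1.62e-06). LM3 values of AGPAT5 were 12.6, 13.5 and 13.2 in siNC and 12.8, 12.7 and 14.4 in siFASRL (log2 fold change 0.02, SE 0.06, adjusted p = 0.767). AGPAT5 was lower in every HepG2 siFASRL library, while its LM3 groups overlapped, and the effect differed between the lines (difference 1.08, SE 0.10, adjusted p = 2.68e-06). In HepG2 it missed the fold threshold with quantile normalization (-0.99), with effects centred on the gap (-0.94) and, narrowly, without siFASRL replicate 1, and in LM3 its fold change ran from -0.03 to 0.14 over the alternatives. AGPAT1, an acyltransferase of the same step, fell from 73.9 to 52.2 in HepG2 (log2 fold change -0.50, SE 0.07, adjusted p = 7.97e-05). In LM3, AGPAT1 fell from 31.8 to 24.6 (log2 fold change -0.36, SE 0.09, adjusted p = 0.00475). AGPAT1 shares 1087 of its exonic bases (29.9%) with PPT2-EGFL8 on the opposite strand, and its value is uncertain for that reason.

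AGPAT2, the isoform known for its role in adipose tissue and liver, fell from 26.0 to 17.8 in HepG2 (log2 fold change -0.51, SE 0.11, adjusted p = 0.0013), and its log2 fold change was -0.38 without siNC replicate 2. In LM3, AGPAT2 fell from 86.8 to 59.4 (log2 fold change -0.52, SE 0.13, adjusted p = 0.00503), and its log2 fold change was -0.69 without siNC replicate 1. AGPAT3, a further acyltransferase, fell almost equally, from 18.8 to 11.3 in HepG2 (log2 fold change -0.68, SE 0.06, adjusted p = 5.74e-06). In LM3, AGPAT3 fell from 12.3 to 7.62 (log2 fold change -0.63, SE 0.05, adjusted p = 7.32e-06). With quantile normalization the differences of AGPAT1 (0.30, adjusted p = 0.0442) and AGPAT3 (0.22, adjusted p = 0.0307) were called too.

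LPIN1 (gene ID 23175, chr2:11677544-11827409) is a phosphatidate phosphatase, which makes the diacylglycerol that DGAT enzymes use. In HepG2, LPIN1 was at 6.17, 7.32 and 6.87 in siNC and 3.26, 3.27 and 3.28 in siFASRL (log2 fold change -0.86, SE 0.06, adjusted p = 1.67e-06). LM3 values of LPIN1 were 11.4, 10.1 and 10.1 in siNC and 3.52, 3.94 and 4.11 in siFASRL (log2 fold change -1.25, SE 0.07, adjusted p = 1.35e-06). The 3 HepG2 siFASRL libraries were almost equal, no groups overlapped, and LPIN1 fell more in LM3 (difference -0.39, SE 0.10, adjusted p = 0.00482), though with quantile normalization the difference was -0.16 and not called (adjusted p = 0.211). With a pseudocount of 0.1 it passed the fold threshold in HepG2 as well (-1.03). LPIN2, a phosphatase of the same family, fell from 12.8 to 8.96 in HepG2 (log2 fold change -0.47, SE 0.07, adjusted p = 0.000115). In LM3, LPIN2 fell from 15.9 to 13.0 (log2 fold change -0.27, SE 0.06, adjusted p = 0.00203), and its log2 fold change was -0.16 at its smallest over the alternatives. LPIN3, its other relative, fell from 11.2 to 8.11 in HepG2 (log2 fold change -0.42, SE 0.07, adjusted p = 0.000274). In LM3, LPIN3 fell from 7.30 to 4.30 (log2 fold change -0.65, SE 0.08, adjusted p = 0.000134), and its log2 fold change was -0.41 with quantile normalization. LPIN3 shares 617 exonic bases with EMILIN3 on the opposite strand.

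The last acylation is shared by DGAT1 and DGAT2, and only DGAT2 moved in opposite directions. DGAT1 (gene ID 8694, chr8:144314584-144326852) esterifies diacylglycerol in the endoplasmic reticulum. In HepG2, DGAT1 was at 22.9, 28.5 and 25.1 in siNC and 15.0, 17.7 and 16.9 in siFASRL (log2 fold change -0.59, SE 0.09, adjusted p = 0.000139). LM3 values of DGAT1 were 13.7, 18.6 and 18.0 in siNC and 12.7, 12.6 and 12.1 in siFASRL (log2 fold change -0.39, SE 0.10, adjusted p = 0.0079). DGAT1 was lower in each siFASRL library of both lines, though LM3 siNC replicate 1 came close to them. Without the siNC library that stood apart, the fold change of DGAT1 was -0.51 in HepG2 and -0.52 in LM3. DGAT2 (gene ID 84649, chr11:75768778-75801534) works at the droplet surface and uses newly made fatty acids. In HepG2, DGAT2 was at 14.9, 15.5 and 12.3 in siNC and 9.04, 9.88 and 9.17 in siFASRL (log2 fold change -0.55, SE 0.08, adjusted p = 0.000166). LM3 values of DGAT2 were 3.24, 3.56 and 3.28 in siNC and 4.22, 4.29 and 4.55 in siFASRL (log2 fold change 0.30, SE 0.05, adjusted p = 0.00101). DGAT2 fell in HepG2 and rose in LM3 with no overlap in either, from a siNC level that was several times higher in HepG2 (difference 0.85, SE 0.10, adjusted p = 2.44e-05). With quantile normalization the LM3 rise was 0.61. MOGAT2, which acylates monoacylglycerol, fell from 3.82 to 1.54 in HepG2 (log2 fold change -0.92, SE 0.06, adjusted p = 7.87e-07), with a log2 fold change between -0.61 (quantile normalization) and -1.26 (pseudocount of 0.1) over the alternatives. In LM3, MOGAT2 was at or near 0 in all 6 libraries.

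Among the lipases, PNPLA2, PNPLA3 and LIPE were lower where tested and MGLL was higher. PNPLA3 (gene ID 80339, chr22:43923805-43947582) is a lipid droplet protein with lipase and acyltransferase activity. In HepG2, PNPLA3 was at 4.18, 4.64 and 3.98 in siNC and 1.3, 1.40 and 1.34 in siFASRL (log2 fold change -1.16, SE 0.06, adjusted p = 2.27e-07). LM3 values of PNPLA3 were 4.68, 5.37 and 5.78 in siNC and 2.71, 2.63 and 2.87 in siFASRL (log2 fold change -0.74, SE 0.07, adjusted p = 2.22e-05). PNPLA3 groups were apart in both lines and the fall was larger in HepG2 (difference 0.42, SE 0.09, adjusted p = 0.00278). Quantile normalization reduced it to -0.87 in HepG2, short of the fold threshold, and to -0.43 in LM3. LIPE (gene ID 3991, chr19:42401514-42427388) is hormone-sensitive lipase. In HepG2, LIPE was at 0.51, 0.53 and 0.38 in siNC and 0.06, 0.07 and 0.12 in siFASRL, below the filter, so no fold change was tested. LM3 values of LIPE were 3.70, 3.46 and 3.54 in siNC and 0.48, 0.54 and 0.66 in siFASRL (log2 fold change -1.55, SE 0.06, adjusted p = 2.89e-07). LIPE was lower in every siFASRL library of both lines, and in LM3 it passed the filter through its siNC libraries alone. A pseudocount of 0.1 gave -2.48 in LM3, and leaving out any siNC library left LIPE untested. LIPE shares 500 exonic bases with the antisense gene LIPE-AS1.

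PNPLA2, the lipase that starts triglyceride breakdown, fell from a mean of 83.0 to 53.1 in HepG2 (log2 fold change -0.63, SE 0.07, adjusted p = 1.67e-05). In LM3, PNPLA2 fell from 31.7 to 24.9 (log2 fold change -0.34, SE 0.08, adjusted p = 0.00579), and its log2 fold change was -0.22 with median-of-ratios scaling. MGLL, which ends the breakdown by splitting monoacylglycerol, rose from 17.1 to 22.2 in HepG2 (log2 fold change 0.36, SE 0.06, adjusted p = 0.000247). In LM3, MGLL rose from 47.6 to 69.3 (log2 fold change 0.53, SE 0.06, adjusted p = 3.86e-05). The first and the last lipase of the pathway therefore moved in opposite directions in both lines.

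None of the 3 droplet coat genes listed in this step was called lower in either line. All 3 rose in HepG2, where 44.8% of all tested genes were higher, and in LM3 only CIDEC did (33.3% against 33.9%). PLIN5 and CIDEB are not listed, and PLIN4, placed with other droplet genes below, was too low to test, though lower in every siFASRL library (means 0.957 and 0.290 in HepG2, 0.847 and 0.4 in LM3). The summed level of the 3 ran from 158 to 194 in HepG2 siNC and from 246 to 272 in siFASRL, and from 69.1 to 89.8 and from 84.8 to 87.0 in LM3. PLIN2 (gene ID 123, chr9:19108388-19127492) coats lipid droplets of liver cells. In HepG2, PLIN2 was at 132, 136 and 107 in siNC and 161, 172 and 175 in siFASRL (log2 fold change 0.44, SE 0.09, adjusted p = 0.00114). LM3 values of PLIN2 were 5.31, 5.69 and 5.05 in siNC and 5.03, 5.70 and 5.72 in siFASRL (log2 fold change 0.03, SE 0.06, adjusted p = 0.692). PLIN2 was higher in each HepG2 siFASRL library, with siNC replicate 3 the lowest, while in LM3 it was far lower throughout and its groups overlapped. The lines differed (difference -0.41, SE 0.12, adjusted p = 0.0123), though with quantile normalization PLIN2 was called higher in LM3 too (0.27, adjusted p = 0.00435) and the difference was not called (adjusted p = 0.51).

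PLIN3, a coat protein of small droplets, rose in HepG2 from a mean of 49.2 to 83.7 (log2 fold change 0.76, SE 0.08, adjusted p = 1.59e-05). In LM3, PLIN3 was at 74.5 in siNC and 77.0 in siFASRL (log2 fold change 0.06, SE 0.10, adjusted p = 0.619), its groups overlapped, and without siNC replicate 1 the sign turned (-0.07). CIDEC, which promotes droplet fusion, rose in HepG2 from 4.39 to 8.39 (log2 fold change 0.80, SE 0.10, adjusted p = 3.33e-05). In LM3, CIDEC rose from 1.87 to 3.36 (log2 fold change 0.59, SE 0.10, adjusted p = 0.000643), and its log2 fold change was 0.96 with quantile normalization.

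The fatty acid carriers split, with FABP1 down and FABP5 up. FABP1 (gene ID 2168, chr2:88122982-88128062) is the fatty acid binding protein of liver. In HepG2, FABP1 was at 20.2, 12.1 and 17.7 in siNC and 1.74, 2.10 and 2.44 in siFASRL (log2 fold change -2.49, SE 0.16, adjusted p = 5.93e-07). In LM3, FABP1 was listed at 0 in all 6 libraries, so there was nothing to fall. FABP1 had the largest fall in HepG2 among the 43 genes, from uneven siNC values of which replicate 2 was the lowest, and without that library the fold change was -2.69. FABP5, the carrier known from epidermis and many tumours, rose in HepG2 from a mean of 52.0 to 90.7 (log2 fold change 0.79, SE 0.06, adjusted p = 2.47e-06). In LM3, FABP5 rose from 21.6 to 33.8 (log2 fold change 0.63, SE 0.06, adjusted p = 3.42e-05). FABP5 has 13 annotated pseudogenes, and how reads shared with them were assigned is not stated beyond the use of RSEM.

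Of the lipogenic regulators, THRSP is not listed. MLXIPL (gene ID 51085, chr7:73593202-73647907) encodes ChREBP, the carbohydrate-responsive factor that drives lipogenic genes. In HepG2, MLXIPL was at 14.4, 13.5 and 13.9 in siNC and 2.77, 2.14 and 2.87 in siFASRL (log2 fold change -2.06, SE 0.08, adjusted p = 5.37e-08). LM3 values of MLXIPL were 4.34, 2.83 and 2.52 in siNC and 0.64, 0.82 and 0.70 in siFASRL (log2 fold change -1.28, SE 0.14, adjusted p = 4.72e-05). MLXIPL fell to 18.6% of its siNC mean for HepG2 and to 22.3% in LM3, where siNC replicate 1 was the highest and all siFASRL values were under 1. On the log2 scale the fall was larger in HepG2 (difference 0.78, SE 0.18, adjusted p = 0.00287), a difference no longer called with a pseudocount of 0.1. In LM3, MLXIPL passed the filter through siNC alone, and its fold change was -1.99 with a pseudocount of 0.1 and -0.89, short of the fold threshold, with quantile normalization.

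The effect of the knockdown differed between the lines for 24 of the 43 genes (55.8%), where 46.7% of all 8285 tested genes differed. In 11 of them the effect was more negative or less positive in LM3: ACACB, ACSS2, ME1, FADS1, ELOVL1, ACSL3, ACSL5, LPIN1, PLIN2, PLIN3 and LIPE. In 13 it was less negative or more positive in LM3: FASN, SCD, ELOVL2, ELOVL6, HSD17B12, GPAM, AGPAT5, DGAT2, MOGAT2, PNPLA2, PNPLA3, MLXIPL and FABP1. Of these 13, ELOVL2, MOGAT2 and FABP1 are at or near 0 in LM3, so their difference restates a fall in HepG2. In the same way LIPE is near 0 in HepG2, where it was at 17.6% of its siNC mean after knockdown and at 15.7% in LM3. Without genes that reach a value of 1 in 1 line only, 20 of 39 differed (51.3% against 42.6% of all genes that reach it in both). The split by direction depends on scaling. With effects centred on the gap, FASN, SCD, ELOVL2, ELOVL6 and PNPLA2 lost their call, and ACACA, ELOVL5, LPIN3 and FABP5 gained one with a negative difference. With median-of-ratios scaling ELOVL1 lost its call, and HACD2, LPIN2 and MGLL gained one with a positive difference. The differences of LPIN1, PLIN2 and MLXIPL lost their call in 1 of 20 alternatives and those of FASN, SCD, ELOVL1 and ELOVL6 in several (called in 14, 13, 12 and 12), those of ELOVL2 and PNPLA2 were called in 8 and 7 of 20 only, and the other 15 kept it in every alternative in which they were tested (16 of 20 for LIPE, 19 for MOGAT2 and PNPLA3). Those of ACACA, FADS2, ELOVL5, HACD2, AGPAT1, AGPAT3, LPIN2, LPIN3, MGLL and FABP5 gained a call in at least 1. On the log2(value + 1) scale the largest were FABP1 (difference 2.49, SE 0.19, adjusted p = 3.51e-07), ACSL5 and GPAM, while that of LIPE (difference -1.11, SE 0.08, adjusted p = 2.55e-07) came with nearly equal falls as a share of siNC. In the plot of effects in both lines, ACSL5 and GPAM lie away from the diagonal.

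**Figure D3:**
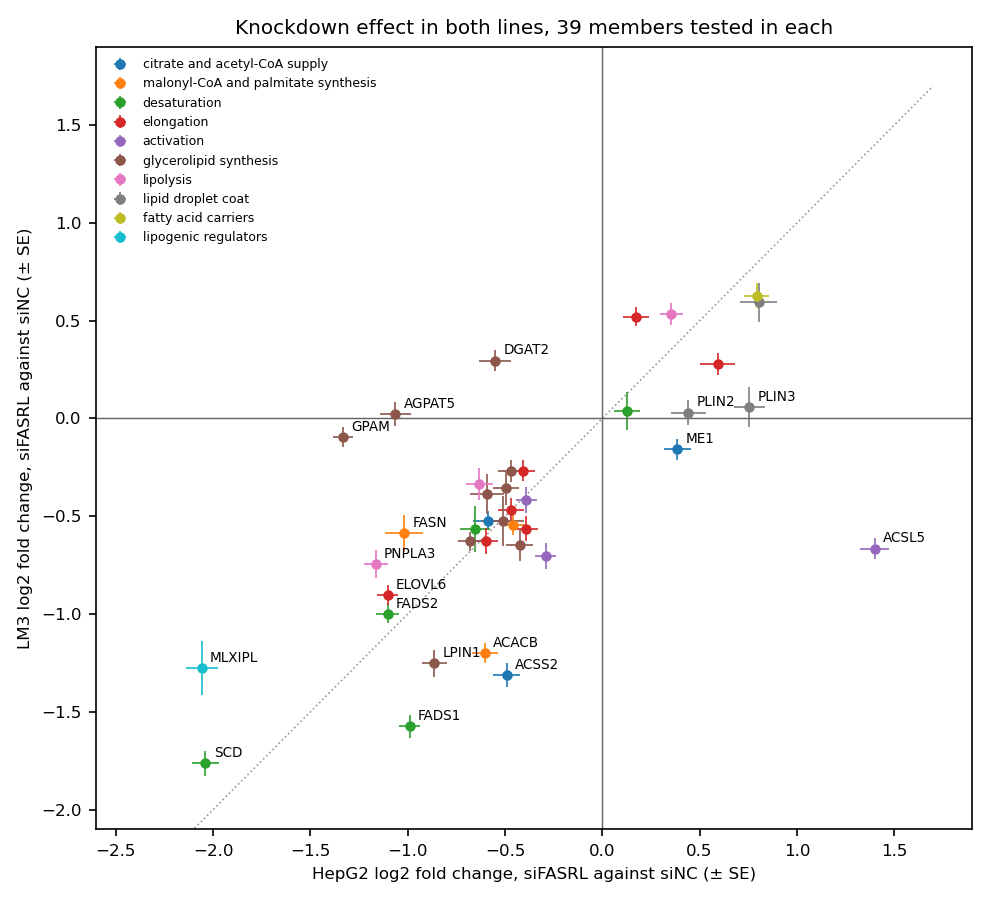
Log2 fold change of siFASRL against siNC in HepG2 (horizontal) and LM3 (vertical) for the 39 genes tested in both, with standard errors and the diagonal of equal effects. Most genes lie in the lower left quadrant, and ACSL5, GPAM, AGPAT5 and DGAT2 lie far from the diagonal.

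The lines also began from different levels. In LM3 siNC, 12 genes were lower than in HepG2 siNC by at least 1 on the log2 scale with adjusted p under 0.05 (27.9%, where 15.5% of all tested genes were), and 6 were higher (14% against 7.65%). On the log2(value + 1) scale, which holds back differences of genes near 0, PLIN2 was far lower in LM3, with siNC means of 125 in HepG2 and 5.35 in LM3 (log2 difference -4.31, SE 0.08, adjusted p = 2.18e-14). So were FABP1 (log2 difference -4.11, SE 0.13, adjusted p = 4.48e-12), ELOVL2 (log2 difference -3.12, SE 0.07, adjusted p = 5.05e-14) and MOGAT2 (log2 difference -2.24, SE 0.06, adjusted p = 3.97e-13). ACSL5 was also lower in LM3 (log2 difference -1.998, SE 0.07, adjusted p = 4.89e-12), as was DGAT2 (log2 difference -1.80, SE 0.07, adjusted p = 4.49e-11). AGPAT2 was above its HepG2 level, with means of 26.0 in HepG2 and 86.8 in LM3 (log2 difference 1.696, SE 0.13, adjusted p = 4.07e-08). LIPE (log2 difference 1.63, SE 0.06, adjusted p = 9.71e-12) and ACACB (log2 difference 1.36, SE 0.06, adjusted p = 6.45e-11) were higher in LM3 as well. LIPE reached a value of 1 in LM3 siNC only, and ELOVL2, MOGAT2 and FABP1 in HepG2 only, so the direction of these 4 was set by the filter. Without genes that reach that value in 1 line only, 9 of 39 were lower in LM3 (23.1% against 9.53% of all genes that reach it in both) and 5 higher (12.8% against 7.86%). SCD and FASN differed by little, 0.22 and -0.32, and the FASN difference was -0.20 and not called without HepG2 siNC replicate 2 (adjusted p = 0.0727) or without LM3 siNC replicate 1 (adjusted p = 0.066). Each replicate block lies within 1 line, so a fit with such blocks cannot estimate a difference between the siNC levels of the lines.

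**Figure D4:**
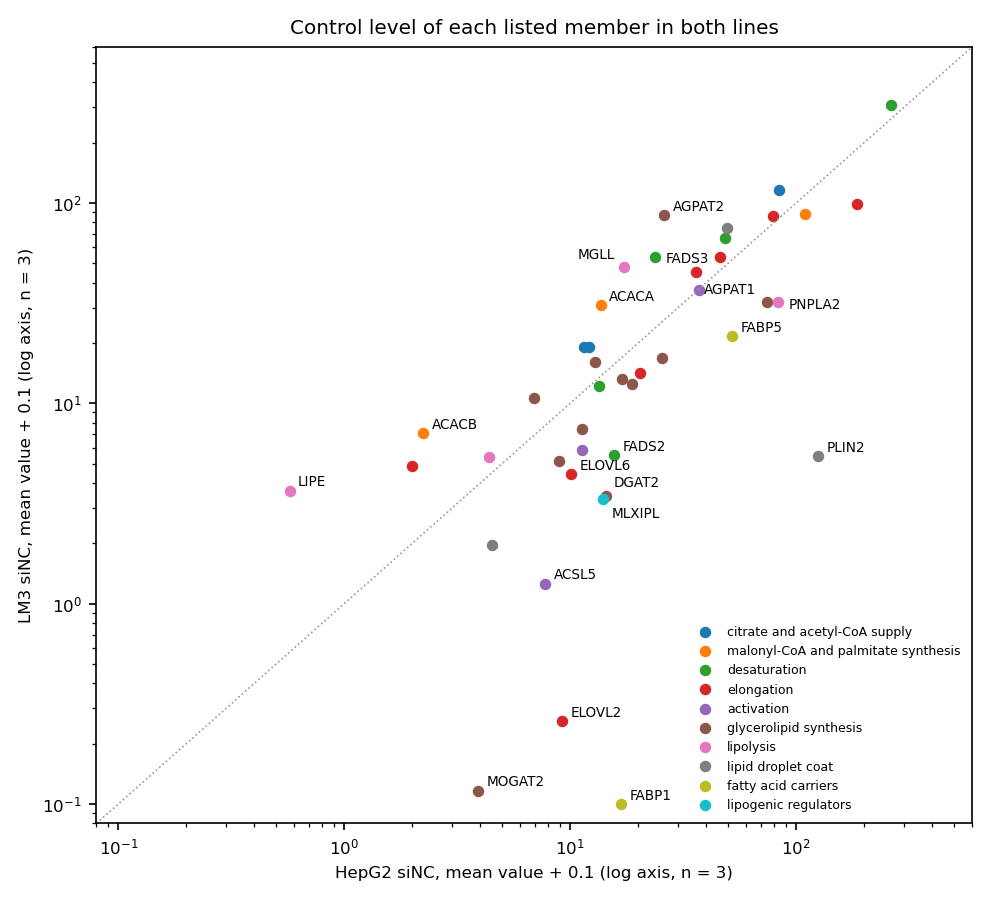
Mean siNC value of each listed gene in HepG2 (horizontal) and LM3 (vertical), both plus 0.1 on log axes, n = 3 libraries a group. Points on the dotted diagonal have equal levels, and PLIN2, FABP1, ELOVL2, MOGAT2 and ACSL5 lie below it.

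Other genes of lipid synthesis and its control, taken from 6 lists of names, moved in part with these genes. Over the 6 lists, 30 of 49 tested genes were lower and 14 higher in HepG2, where 44.3% and 44.8% of all tested genes were, and 30 of 45 were lower and 9 higher in LM3, where 43.5% and 33.9% were. HACD4 and CD36 passed the filter in HepG2 only through siNC and so had to be lower, and both are among the 30. Of the SREBP, LXR and ChREBP axis, 10 of 15 genes are listed, and 7 were lower and 3 higher in each line. NR1H2 (LXR beta), MLX (the partner of ChREBP) and MID1IP1 rose in both. SREBF1, SREBF2 and INSIG1 passed the fold threshold in both. In HepG2 these were SREBF1 (mean 53.1 in siNC and 22.0 in siFASRL, log2 fold change -1.23, adjusted p = 1.77e-07), SREBF2 (mean 47.8 in siNC and 19.5 in siFASRL, log2 fold change -1.26, adjusted p = 3.35e-07) and INSIG1 (mean 18.4 in siNC and 4.803 in siFASRL, log2 fold change -1.75, adjusted p = 2.26e-07). In LM3 they were SREBF1 (mean 70.4 in siNC and 21.6 in siFASRL, log2 fold change -1.66, adjusted p = 2.52e-07), SREBF2 (mean 49.96 in siNC and 23.6 in siFASRL, log2 fold change -1.05, adjusted p = 1.17e-06) and INSIG1 (mean 65.4 in siNC and 14.7 in siFASRL, log2 fold change -2.08, adjusted p = 2.34e-07). SREBF1 and SREBF2 encode the SREBP factors and INSIG1 holds them in the endoplasmic reticulum. Whether their change has a part in that of the synthesis genes was not tested. Of the AMPK subunits and upstream kinases, 8 of 10 are listed, with 4 lower and 4 higher in HepG2, 4 of 7 lower and 2 higher in LM3, and none past the fold threshold. The HepG2 split is near that of all tested genes.

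Other fatty acid synthesis and elongation genes (11 of 16 listed) were lower in 9 and higher in 1 in HepG2 (81.8% and 9.09%), and lower in 9 and higher in none in LM3. For comparison, 44.3% of all tested genes were lower and 44.8% higher in HepG2, and 43.5% and 33.9% in LM3. In HepG2, the mitochondrial acyl carrier NDUFAB1 (mean 89.1 in siNC and 39.5 in siFASRL, log2 fold change -1.16, adjusted p = 1.96e-05) and citrate synthase, CS (mean 104 in siNC and 51.0 in siFASRL, log2 fold change -1.02, adjusted p = 2.73e-06), fell past the fold threshold. In LM3 so did IDH1 (mean 75.2 in siNC and 18.4 in siFASRL, log2 fold change -1.98, adjusted p = 2.34e-07), which yields NADPH, HACD4 (mean 5.98 in siNC and 2.18 in siFASRL, log2 fold change -1.13, adjusted p = 5.48e-06) and NDUFAB1 (mean 52.5 in siNC and 25.1 in siFASRL, log2 fold change -1.03, adjusted p = 0.000113). Other glycerolipid and phospholipid acylation genes (8 of 15 listed) had 2 lower and 3 higher of 7 tested in HepG2 (28.6% and 42.9%). In LM3 they had 3 lower and 2 higher of 5 (60% and 40%), and in both lines the share higher was near that of all tested genes. Among them PLPP3 (mean 4.79 in siNC and 12.4 in siFASRL, log2 fold change 1.22, adjusted p = 3.76e-07), a lipid phosphatase, rose in LM3. Other lipid droplet genes (6 of 13 listed) were lower in 3 and higher in 1 of 5 tested in each line (60% and 20%). In HepG2, HILPDA (mean 56.5 in siNC and 24.2 in siFASRL, log2 fold change -1.19, adjusted p = 2.19e-07), an inhibitor of PNPLA2, fell and AUP1 (mean 50.3 in siNC and 118 in siFASRL, log2 fold change 1.22, adjusted p = 2.58e-07) rose. In LM3, AUP1 rose as well, from 48.1 to 103 (log2 fold change 1.08, SE 0.05, adjusted p = 9.62e-07). Fatty acid uptake and other carrier genes (8 of 15 listed) were lower in 5 and higher in 2 of 8 in HepG2 (62.5% and 25%) and lower in 4 and higher in 1 of 7 in LM3 (57.1% and 14.3%). Of these the carriers FABP3 (mean 7.16 in siNC and 1.74 in siFASRL, log2 fold change -1.57, adjusted p = 1.85e-07) and DBI (mean 175 in siNC and 69.8 in siFASRL, log2 fold change -1.32, adjusted p = 2.16e-07) fell in HepG2. In LM3 the same carriers fell, FABP3 (mean 94.6 in siNC and 34.5 in siFASRL, log2 fold change -1.43, adjusted p = 3.83e-07) and DBI (mean 279 in siNC and 101 in siFASRL, log2 fold change -1.46, adjusted p = 2.42e-07).

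**Figure D5:**
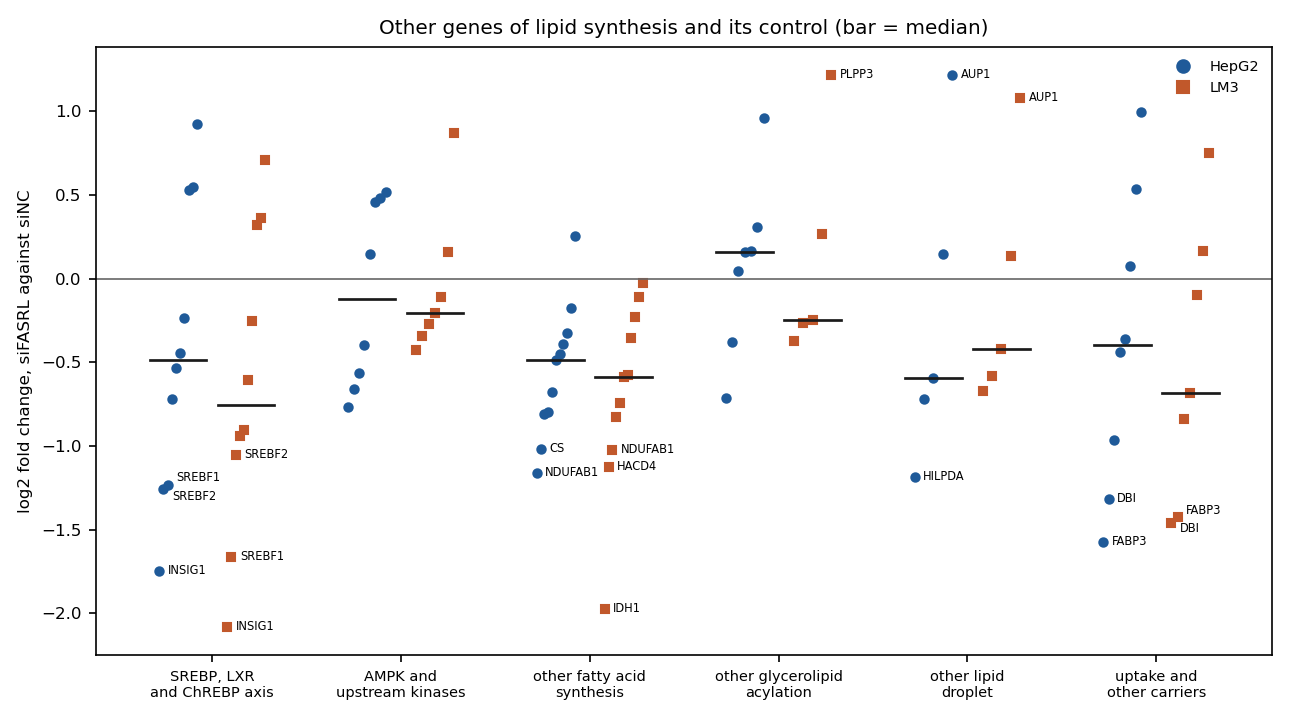
Log2 fold change of siFASRL against siNC for the tested genes of 6 further lists, circles HepG2 and squares LM3, with a bar at each median. Labelled genes passed the fold threshold, and the medians are below 0 in each list except other glycerolipid acylation in HepG2.

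Markers of cell identity moved in the same comparisons. Of 18 hepatocyte markers 16 are listed. In HepG2, where 44.3% of all tested genes were lower and 44.8% higher, 15 of these markers were lower (93.8%) and APOA2 was higher (log2 fold change 0.27, SE 0.09, adjusted p = 0.0149, with overlapping groups). Their summed level was 5347, 5275 and 4822 in HepG2 siNC and 2796, 2816 and 2858 in siFASRL, with SERPINA1 the most abundant in each. ALB had means of 815 in siNC and 235 in siFASRL there (log2 fold change -1.79, SE 0.06, adjusted p = 2.14e-08). LM3 has these markers at or near 0 except RBP4 and HNF4A (ALB mean 0.360 in siNC). Their LM3 sum was 32.1, 41.7 and 41.1 in siNC and 26.0, 25.2 and 23.8 in siFASRL. HNF4A fell in LM3 (log2 fold change -0.998, SE 0.07, adjusted p = 5.66e-06), and RBP4 was not called (log2 fold change -0.20, SE 0.10, adjusted p = 0.0942). The 5 cholangiocyte markers, of which KRT7 was the most abundant after knockdown, summed to 904.7, 906.1 and 844.4 in HepG2 siNC and 1129, 1184 and 1148 in siFASRL, and to 188.3, 213.6 and 216.5 and 357.5, 368.4 and 358.6 in LM3. In HepG2, 2 of the 5 were higher and 3 lower (40% and 60%), and the share higher was near that of all tested genes. In LM3 the sum was nearly all KRT7, EPCAM was lower and the other 3 were not tested. Fibroblast markers (5 of 6 listed) summed to 70.6, 70.9 and 72.2 in HepG2 siNC and 35.4, 32.3 and 33.3 in siFASRL, and to 15.1, 14.3 and 13.2 and 4.69, 5.86 and 5.25 in LM3. Of the leukocyte markers only CD68, CD79A and LYZ are listed, with HepG2 sums of 127.3, 123.7 and 122.4 in siNC and 105.4, 94.1 and 95.3 in siFASRL and LM3 sums of 18.3, 15.2 and 16.4 and 18.5, 18.6 and 19.1. In HepG2, LYZ was lower, CD68 was not called and CD79A, which passed the filter through siFASRL alone, was higher. VWF, the only endothelial marker listed, was at most 0.35. The fall of FABP1 and MLXIPL in HepG2 came with that of the hepatocyte markers, and the part of these markers in the result was not tested.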

How the data were processed

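RNA-seq of HepG2 and LM3 cells, 3 libraries in each of 4 groups, was analysed from the deposited tables. The authors, by their methods, cleaned reads with SOAPnuke 1.5.2, mapped them with HISAT2 2.0.4 and Bowtie2 2.2.5 and quantified coding genes with RSEM 1.2.12. The deposited RSEM values are of a unit (FPKM or TPM) that the labels do not state. The labels name hg19, while sequence names in the tables belong to GRCh38. 6 expression columns that repeat another file were not used.

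Values were transformed to log2(value + 1) in R 4.3.3 and fitted with limma 3.58.1 (moderated linear model), keeping genes that reached a value of 1 in 3 or more libraries of the fit and adjusting p-values by Benjamini-Hochberg over all tested genes. Each line was fitted on its 6 libraries, and the difference of effects and the siNC comparison on all 12. The script was tested on simulated data. A count model was not used, since the values are not counts.

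Values of every library are printed for genes past the fold threshold in either line, for the central enzymes ACACA, FASN, SCD, GPAM, DGAT1 and DGAT2 and the coat gene PLIN2, and for genes called in opposite directions. The members, lists and rules were chosen with earlier results of these data known. Alternatives were pseudocounts of 0.1 and 0.5, no filter, a minimum of 5, quantile normalization, median-of-ratios scaling, a replicate block, a joint fit, a 1.5-fold threshold, each library left out and, added after the data were seen, HepG2 effects centred on the gap. The siNC comparison cannot be estimated with the replicate block, since each block lies within a line.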

Additional observations from a re-analysis of the deposited data

Results flagged for a closer look

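The effect of FASRL knockdown differed between the lines, by the interaction test, for 24 listed genes (55.8%, where 46.7% of all tested genes differed), given here as log2 values, the effect in LM3 less that in HepG2. It was more negative or less positive in LM3 for ACACB -0.6, ACSS2 -0.82, ME1 -0.54, FADS1 -0.58, ELOVL1 -0.31, ACSL3 -0.41, ACSL5 -2.07, LPIN1 -0.39, PLIN2 -0.41, PLIN3 -0.7 and LIPE -1.11. It was less negative or more positive in LM3 for FASN 0.43, SCD 0.28, ELOVL2 0.27, ELOVL6 0.2, HSD17B12 0.35, GPAM 1.24, AGPAT5 1.08, DGAT2 0.85, MOGAT2 0.96, PNPLA2 0.3, PNPLA3 0.42, MLXIPL 0.78 and FABP1 2.49. FABP1, MOGAT2 and ELOVL2 are at or near 0 in LM3 and LIPE in HepG2, and without such genes 20 of 39 differed (51.3% against 42.6% of all genes).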

How the results depend on the processing

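Of the results on single genes, 2816 comparisons with an alternative stayed called or stayed uncalled, 74 lost a call, 23 gained one and 1 called result changed sign, while signs of uncalled results also turned in places. These numbers include the siNC differences with a replicate block, which that fit cannot estimate. The ELOVL2 difference between the lines was 0.27 in the fit and -0.0306 with a pseudocount of 0.1, where LM3 values are near 0. Genes lower at the fold threshold in HepG2 went from 9 to 5 with HepG2 effects centred on the gap, an alternative added after seeing the data. With a 1.5-fold threshold that count went from 9 to 19, the higher ones in HepG2 from 1 to 5, the lower ones in LM3 from 7 to 16 and the higher ones in LM3 from 0 to 2, since the rule asks for less. Why centring moved its count was not tested beyond its shift of every HepG2 effect by 0.12.

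Leaving out 1 library gave 32 lower genes in HepG2 each time (7 to 10 at the fold threshold) and 8 to 9 higher (1 at the threshold). In LM3 it gave 26 to 28 lower (5 to 7 at the threshold) and 6 higher (0 at the threshold), and without any 1 siNC library ACSL5, LIPE and MLXIPL were no longer tested. Differences between the lines were 19 to 23, and genes lower and higher in LM3 siNC were 12 and 5 to 7.

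With replicate number within each line as a replicate block, knockdown effects called different between the lines went from 24 to 22, without ELOVL6 and PNPLA2. The counts within each line were equal. Differences between the siNC groups cannot be estimated with these blocks, since each block lies within a line, and nothing is drawn from that fit. Residuals of libraries with the same number correlated at 0.319, 0.371 and -0.2 in HepG2 and at -0.08, 0.118 and -0.175 in LM3, so not every library correlated best with its own number.

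Scaling shifted the median effect of all genes in LM3 by 0.11 (median-of-ratios) and 0.10 (quantile). Among all genes with a called difference between the lines, 58.3% were more negative in LM3, but 47.3% with median-of-ratios scaling, 50.7% with quantile normalization and 75.8% with effects centred on the gap. Of all genes called in LM3, 56.2% were lower, but 46.9% with median-of-ratios scaling and 48.1% with quantile normalization, where the median effect of -0.06 became 0.05 and 0.03. The cause was not tested.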
